A study of Mus musculus with 12 samples.

Results

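The 10 genes described here encode the cyclins that drive a cell from G1 towards S phase and the inhibitors that hold their kinases back. They are the D-type cyclins Ccnd1, Ccnd2 and Ccnd3, the E-type cyclins Ccne1 and Ccne2, the Cip/Kip inhibitors Cdkn1b and Cdkn1c, and the Ink4 genes Cdkn2a, Cdkn2b and Cdkn2c. They were chosen by symbol, with earlier results of these data known, and make up 10 of the 24062 rows of the count table. All 10 were found in it and passed the filter on low counts, as did 12154 genes in all.

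RNA-Seq was performed on mouse embryonic fibroblasts (MEFs) that expressed shRenilla, a control shRNA against a luciferase that mouse cells lack, or shBruce, an shRNA against Birc6, the gene of the ubiquitin-conjugating protein BRUCE. Each line was either kept in full medium, abbreviated FM, or moved for 2 h to starvation medium, abbreviated Starv, which had neither serum nor amino acids. This gave the 4 conditions shRenilla FM, shRenilla Starv, shBruce FM and shBruce Starv, with 3 libraries each. Every cell compared therefore carried an shRNA, and with a line per shRNA the knockdown and other differences between the lines cannot be told apart. The study made its stable shRNA lines in a clonal reporter line with mCherry-EGFP-LC3B, and the sources used here do not state whether the sequenced cells carried that reporter. Nothing says that the replicates came from separate cultures, so p-values measure only the spread between these libraries.

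D-type cyclins bind CDK4 and CDK6, and E-type cyclins bind CDK2. The active kinases phosphorylate the pocket proteins RB1, RBL1 and RBL2, which frees E2F factors to switch on the genes of DNA replication. Ccnd1 transcription is known to depend on growth factors, while p27, the product of Cdkn1b, accumulates in resting cells and blocks cyclin-CDK2. Ink4 proteins bind CDK4 and CDK6 in place of cyclin D, and Cdkn2a also encodes p19ARF, which stabilises p53. The Ink4 genes are known to rise in MEFs with time in culture.

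Starvation for 2 h lowered Ccnd1 and Ccnd3 and raised Cdkn1b in both lines, and no member passed the test of the interaction, which asks whether the response differed between the lines. In bulk RNA, fewer cells that express a gene and less RNA per cell cannot be told apart. In shRenilla MEFs, 3 of the 10 genes passed the threshold, against 17.0% of all genes tested. Of them 1 was higher and 2 were lower, against 9.69% and 7.27% of all genes. In shBruce MEFs, 4 of the 10 passed, the same 3 genes and Cdkn1c, against 23.0% of all genes. The threshold was an adjusted p under 0.05 in edgeR's quasi-likelihood test, with the Benjamini-Hochberg adjustment over all genes tested.

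Between the lines, none of the 10 genes passed in FM, where 0% of all genes did and 3 members had an unadjusted p under 0.05 (14.4% of all genes). None passed in FM by the Wald test of DESeq2, which called 76 genes, or by limma-voom, which called 0. After starvation, 2 of the 10 passed, Cdkn1c and Cdkn2a, both higher in shBruce MEFs, against 23.9% of all genes (12.8% higher). Averaged over both media, 2 passed, Cdkn2a higher and Ccne2 lower in shBruce MEFs, against 32.1% of all genes (16.3% higher and 15.7% lower). At an unadjusted p under 0.05 there were 4 members in Starv and 5 averaged over both media, against 41.2% and 45.5% of all genes. The interaction of line and medium called 0 members and 0% of all genes in edgeR, DESeq2 and limma-voom alike, and 0 members had an unadjusted p under 0.05 (3.90% of all genes in edgeR). Median log2 fold changes of the members and of all genes were −0.01 and −0.01 for starvation of shRenilla MEFs and 0.06 and 0.02 for starvation of shBruce MEFs. For shBruce against shRenilla they were 0.22 and 0.01 in FM, 0.22 and −0.00 in Starv, and 0.26 and 0.00 averaged over both media. The shares of members called were thus near or below those of all genes in the comparisons between lines.

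**Figure D1:**
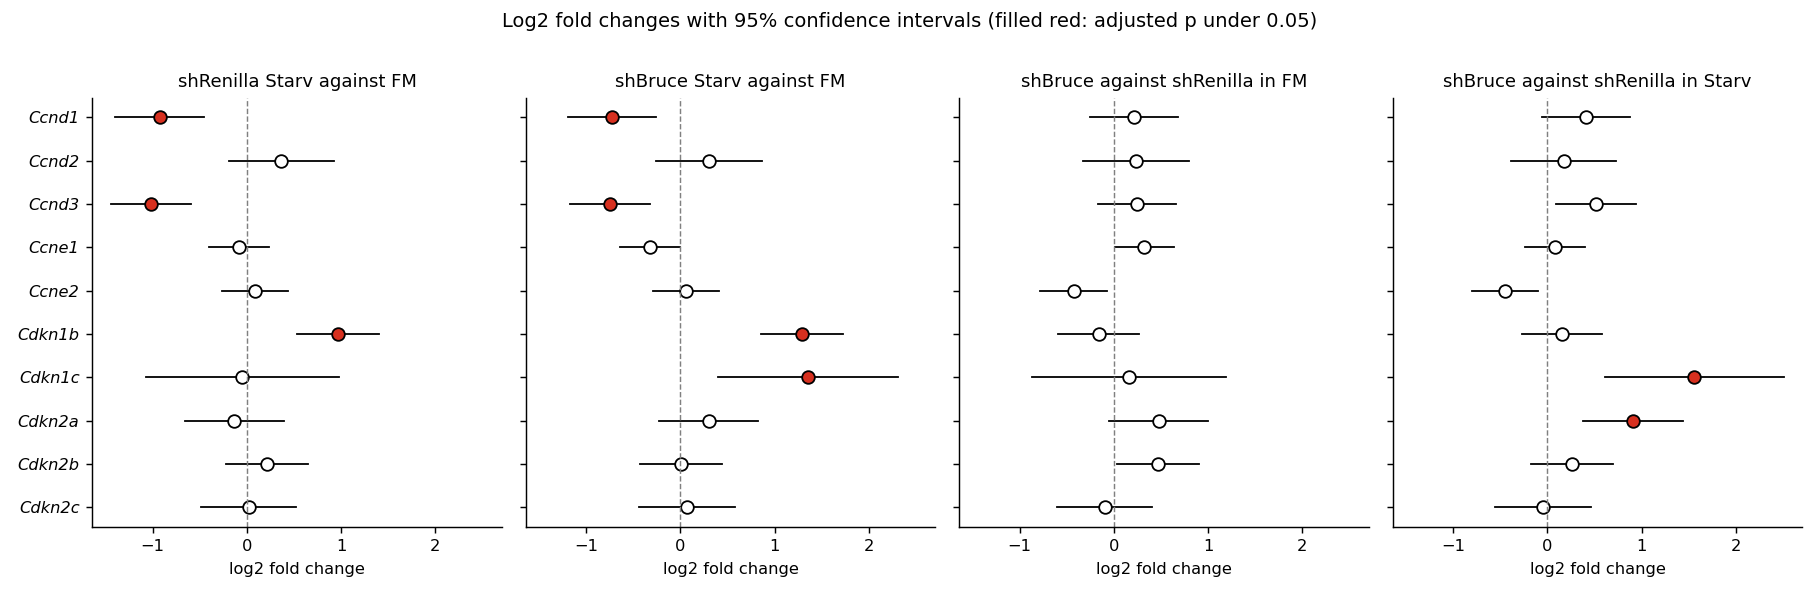
Log2 fold changes of the 10 genes (x axis) in 4 comparisons (panels), with 95% confidence intervals from the joint fit of 12 libraries, filled red where the adjusted p was under 0.05. Ccnd1 and Ccnd3 lie left of 0 and Cdkn1b right of 0 in both starvation panels, and only Cdkn1c and Cdkn2a are filled in a panel between the lines.

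Library totals ranged from 7717265 to 18510540 counts, with the lowest in shBruce Starv replicate 1. Birc6 had normalized counts (counts scaled to a common effective library size) of 4682, 3273 and 5061 in shRenilla FM, 4759, 4712 and 2787 in shRenilla Starv, 1207, 1265 and 1390.4 in shBruce FM, and 1175, 703 and 1226 in shBruce Starv. The libraries of the lines did not overlap, and Birc6 was lower in shBruce MEFs by a log2 fold change of −1.87 ± 0.18 (SE) averaged over both media (edgeR adjusted p = 0.000958). In FM alone it missed the threshold (log2 fold change −1.75, edgeR adjusted p = 0.0627). The shBruce Starv libraries stood apart from each other: the root mean square log2 difference of a library from its replicates was 0.55, 0.36 and 0.54 there, against 0.14 to 0.41 in the other 9 libraries. Median coefficients of variation of the 10 genes were 9.07%, 7.82%, 23.3% and 34.6% in shRenilla FM, shRenilla Starv, shBruce FM and shBruce Starv, and those of all genes 8.19%, 8.94%, 11.3% and 22.3%. Libraries also differed in how counts depended on transcript length. This was measured by Spearman's rho between length and a gene's deviation from its mean over 12 libraries (12051 genes). In replicate order, rho was 0.29, −0.05 and 0.42 in shRenilla FM and 0.51, 0.50 and 0.11 in shRenilla Starv. In shBruce MEFs it was −0.25, −0.28 and −0.21 in FM and −0.30, −0.58 and 0.09 in Starv. The length trend thus went largely with the line, and in comparisons between the lines they cannot be fully told apart.

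Of the fibroblast markers, 8 of 9 passed the filter, with Vim up to 72661 normalized counts, while Thy1 stayed at 2.45 or less. Of these 8, 0 passed for starvation in either line, S100a4 was higher in shBruce than in shRenilla Starv (log2 fold change 1.16, edgeR adjusted p = 0.0225), and 4 passed averaged over both media, 3 higher, among them Col3a1 (1.02) and S100a4 (0.89), and 1 lower, Fn1 (−0.64). Their summed counts were 154787 to 158994 in shRenilla FM, 130223 to 140085 in shRenilla Starv, 167396 to 198524 in shBruce FM and 131720 to 161506 in shBruce Starv. Among epithelial markers, Epcam and Cdh1 did not exceed 4.90, and Krt19, the 1 of 5 that passed the filter, was lower after starvation in shRenilla and shBruce MEFs (log2 fold changes −1.32 and −0.85, edgeR adjusted p = 0.000996 and 0.0118) and higher in shBruce than in shRenilla Starv (0.78, edgeR adjusted p = 0.0283) and averaged over both media (0.54). Immune markers had 2 of 4 past the filter, with Cd3e at 0 and Csf1r at 4.04 or less in every library, and Ptprc, at 18.2 or less, was higher in shBruce than in shRenilla Starv (log2 fold change 1.52, edgeR adjusted p = 0.0283) and averaged over both media (1.46). Cd68 was lower after starvation of shBruce MEFs (−0.65, edgeR adjusted p = 0.0386). Endothelial markers had 1 of 4 and neural markers 3 of 4 past the filter, with Pecam1 at 5.38 or less and Gfap at 8.07 or less. Kdr was lower in shBruce MEFs averaged over both media (log2 fold change −1.27, edgeR adjusted p = 0.0135). Sox2 was lower after starvation in shRenilla MEFs (log2 fold change −1.70, edgeR adjusted p = 0.00726) and Tubb3 higher in both lines (0.73 and 0.49, edgeR adjusted p = 0.00275 and 0.0198) and in shBruce MEFs averaged over both media (0.47). The part of these genes in the results below was not tested.

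In the GRCm38 annotation, the D-type cyclin genes lie at chr7:144929931-144939925 (minus strand) for Ccnd1, chr6:127125162-127152193 (minus strand) for Ccnd2 and chr17:47505051-47599691 (plus strand) for Ccnd3. Ccne1 lies at chr7:38097984-38107534 (minus strand) and Ccne2 at chr4:11191351-11204779 (plus strand). Cdkn1b lies at chr6:134920401-134925513 (plus strand) and Cdkn1c at chr7:143458339-143461050 (minus strand). Among the Ink4 genes, Cdkn2a lies at chr4:89274471-89294653 (minus strand), Cdkn2b at chr4:89306299-89311039 (minus strand) and Cdkn2c at chr4:109660876-109667189 (minus strand). All are protein-coding.

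Levels can be compared between genes only per length, here as RPKM, reads per kb of the longest coding transcript scaled to the effective library size. Cdkn2a was the highest of the 10 in every condition, at 301 ± 27.9 (SD, n = 3) in shRenilla FM, and Cdkn1c the lowest, at 0.450 ± 0.122. In shRenilla FM the order between them was Ccnd1 (96.4 ± 2.20), Ccnd3 (49.5 ± 4.40), Ccne2 (26.1 ± 4.12), Cdkn2b (19.7 ± 0.560), Cdkn2c (14.2 ± 1.41), Cdkn1b (12.0 ± 1.21), Ccne1 (10.6 ± 0.815) and Ccnd2 (9.19 ± 0.613). Libraries of neighbours in that order overlapped for Cdkn2c with Cdkn1b and for Ccne1 with Ccnd2, and lay apart for the others. After starvation of shRenilla MEFs, Cdkn1b moved from the 7th to the 5th place at 23.5 on average, where its libraries overlapped those of Ccnd3 (24.4 ± 2.96) and Cdkn2b (22.9 ± 1.78). In shBruce Starv the levels of Ccnd1 (67.6 on average), Ccnd3 (35.0 ± 11.9) and Cdkn2b (27.4 ± 4.48) overlapped from each gene to the next.

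**Figure D2:**
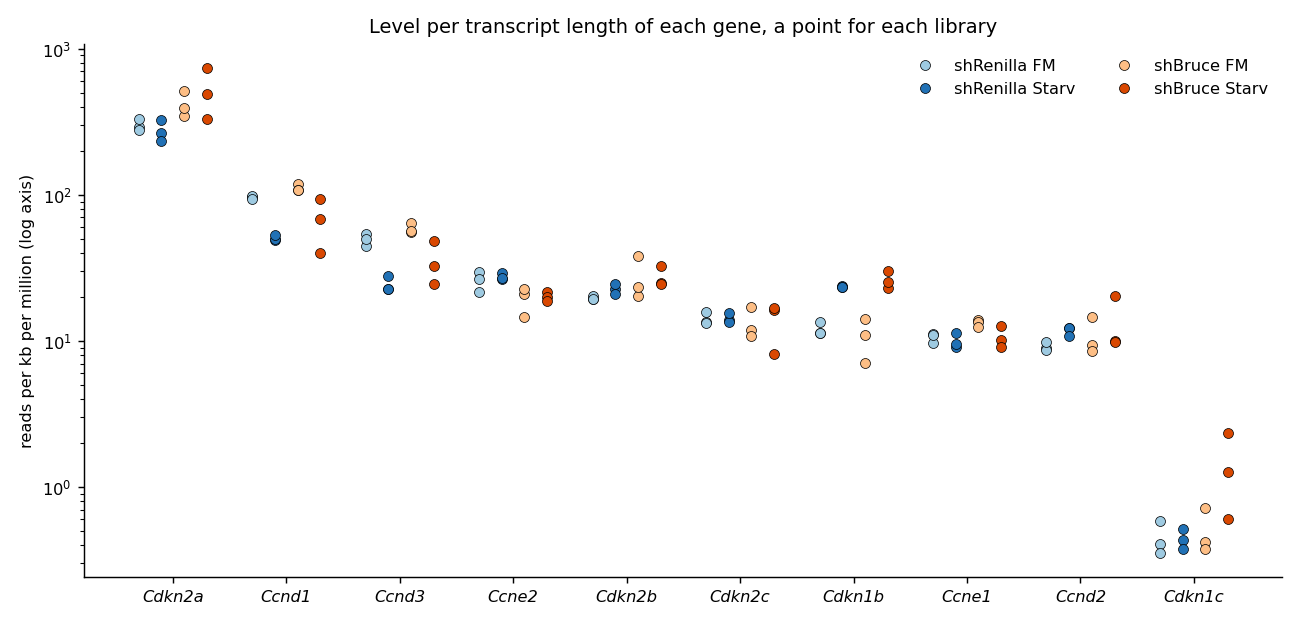
Level of each gene in RPKM (log axis), a point for each library, coloured by condition and ordered by the mean in shRenilla FM. Cdkn2a lies above and Cdkn1c below all other genes in every library.

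Ccnd1, the D-type cyclin with the highest level, was lower after starvation in both lines. Its normalized counts were 5249.9, 5388 and 5148 in shRenilla FM and 2695, 2735 and 2882 in shRenilla Starv. In shBruce MEFs they were 6511, 5894 and 5894 in FM and 5147, 3728 and 2194 in Starv. All starved libraries were below all FM libraries within each line, and the shBruce Starv libraries spread most, from below the FM range to the lowest value of the 12. Ccnd1 fell 1.90-fold in shRenilla MEFs (log2 fold change −0.93 ± 0.22, 95% confidence interval −1.40 to −0.46, edgeR adjusted p = 0.0109) and 1.66-fold in shBruce MEFs (−0.73 ± 0.22, −1.20 to −0.26, edgeR adjusted p = 0.0285). An exact permutation test gave p = 0.1 in each line, the smallest that 3 libraries against 3 allow. The call in shRenilla MEFs held in all 22 alternatives and that in shBruce MEFs in 17 of 22, being lost, among others, without shBruce FM replicate 1 (edgeR adjusted p = 0.0862) or replicate 2 (0.0621) and without shBruce Starv replicate 2 (0.0553). It was also lost with only the shBruce libraries fitted (0.147), where 956 of 11787 genes passed, and with length and GC trends removed (0.0570). The log2 fold change in shBruce MEFs was −0.46 without shBruce Starv replicate 3 and −1.06 without replicate 1. Ccnd1 shares 1100 exonic bases with LTO1, listed as Oraov1, on the opposite strand, which passed in no comparison.

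Ccnd3 was lower after starvation as well. Its normalized counts were 1384, 1655 and 1540.4 in shRenilla FM and 699, 700.1 and 858 in shRenilla Starv. Those of shBruce were 1726, 1974 and 1732 in FM and 1482, 1001 and 759.8 in Starv. Starved and FM libraries did not overlap in either line, as for Ccnd1, and the order of the shBruce Starv libraries was that of Ccnd1. Ccnd3 fell 2.03-fold in shRenilla MEFs (log2 fold change −1.02 ± 0.20, edgeR adjusted p = 0.00332) and 1.68-fold in shBruce MEFs (−0.75 ± 0.20, edgeR adjusted p = 0.0148). The latter call was lost without shBruce FM replicate 2 (edgeR adjusted p = 0.0570) and with only the shBruce libraries fitted (0.0881), where 956 of 11787 genes passed. Ccnd3 shares 361 exonic bases with Bysl, a ribosome biogenesis gene on the opposite strand, and the sources used here do not state whether counting used strand. Bysl itself had mean normalized counts of 1631 ± 213 (SD, n = 3) and 1009.9 ± 105 in shRenilla FM and Starv and fell by 0.69 and 0.58 on the log2 scale in shRenilla and shBruce MEFs (edgeR adjusted p = 0.0132 and 0.0251).

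RefSeq promoters (GRCm38.p6) were matched for 6 of the 10 members, all but Ccnd1, Ccnd2, Ccne2 and Cdkn1c. Those of Ccnd3 are printed because its reads fell upon starvation in both lines. Each sequence is the 250 bases before an annotated start, on the plus strand, and capitals mark matches on either strand to the GC box (GGGCGG), the CCAAT box (CCAAT), the CRE core (TGACGT), the forkhead motif (GTAAACA), the E2F motif (TTTCCCGC) or the E-box (CACGTG).
Ccnd3, chr17:47504801-47505050: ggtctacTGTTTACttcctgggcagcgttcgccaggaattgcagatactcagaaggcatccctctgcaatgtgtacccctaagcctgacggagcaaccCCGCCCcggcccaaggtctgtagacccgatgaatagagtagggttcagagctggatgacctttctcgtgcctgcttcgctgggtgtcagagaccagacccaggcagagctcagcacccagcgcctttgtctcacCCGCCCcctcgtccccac
Ccnd3, chr17:47593217-47593466: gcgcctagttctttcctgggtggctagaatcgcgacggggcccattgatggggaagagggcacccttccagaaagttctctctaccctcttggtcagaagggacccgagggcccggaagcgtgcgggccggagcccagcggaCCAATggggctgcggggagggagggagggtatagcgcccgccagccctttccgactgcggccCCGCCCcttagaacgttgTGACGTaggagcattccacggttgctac
The upstream window holds 1 forkhead motif, a motif found in 3.17% of the 32851 mouse promoter windows of this length, and 2 GC boxes (32.7%). The window at the inner start holds 1 GC box, 1 CCAAT box (33.8%) and 1 CRE core (6.47%). A match is a description of letters, not of a bound factor.

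Ccnd2, the remaining D-type cyclin, did not pass the threshold in any comparison. Its normalized counts were 831, 804 and 913 in shRenilla FM and 1142, 1139 and 1004 in shRenilla Starv. In shBruce MEFs they were 860.1, 787 and 1348 in FM and 1883, 921 and 916 in Starv. The shRenilla libraries lay apart, with higher values after starvation, while those of shBruce overlapped and a single library in each medium stood above its replicates. The log2 fold changes upon starvation were 0.37 (95% confidence interval −0.19 to 0.93, edgeR adjusted p = 0.363) in shRenilla and 0.30 (−0.26 to 0.87, edgeR adjusted p = 0.423) in shBruce MEFs. With only the shRenilla libraries fitted, where 5013 of 11954 genes passed, the difference in that line passed too (edgeR adjusted p = 0.00594). A 368-base stretch of its exons is shared with 9330179D12Rik on the opposite strand.

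Summed per length, the D-type cyclins came to 155 ± 5.57 (SD, n = 3) in shRenilla FM and 87.0 ± 3.89 in shRenilla Starv, and to 181 ± 2.99 in shBruce FM and 116 ± 44.2 in shBruce Starv. Ccnd1 made up 62.2% ± 1.65 of that sum in shRenilla FM and 58.4% ± 0.584 in shRenilla Starv. The share of Ccnd2 was 5.94% ± 0.506 in shRenilla FM and 13.7% ± 1.55 in shRenilla Starv, with ranges that did not overlap, and 5.98% ± 1.90 and 11.6% ± 2.28 in shBruce FM and Starv. Between the lines no D-type cyclin passed the threshold in a single medium. Ccnd3 came closest, with a log2 fold change of 0.52 ± 0.20 for shBruce against shRenilla in Starv (edgeR adjusted p = 0.0696) and of 0.38 ± 0.14 averaged over both media, where its adjusted p was just above the threshold. Without shBruce Starv replicate 3 both passed (edgeR adjusted p = 0.00365 and 0.00323), as did 5735 and 6081 of 12278 genes. With length and GC trends removed the averaged value of Ccnd3 was 0.09.

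The E-type cyclins did not pass the threshold for starvation in either line. Ccne1 had normalized counts of 282, 325 and 322 in shRenilla FM, 267, 279 and 331 in shRenilla Starv, 406, 392 and 364 in shBruce FM, and 295, 367 and 267 in shBruce Starv. Its libraries in shBruce FM lay above those of shRenilla FM (log2 fold change 0.32 ± 0.15, edgeR adjusted p = 0.336). Upon starvation of shBruce MEFs the log2 fold change was −0.32 ± 0.15 (unadjusted p = 0.0473, edgeR adjusted p = 0.132), which passed without shBruce Starv replicate 2 (−0.47, edgeR adjusted p = 0.0355) and with length and GC trends removed (−0.41, edgeR adjusted p = 0.0135).

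Ccne2 was lower in shBruce MEFs. Its normalized counts were 1308, 951 and 1173 in shRenilla FM and 1172, 1289 and 1175 in shRenilla Starv. Those of shBruce were 913, 644 and 992 in FM and 955, 875 and 829 in Starv. The lines lay apart in Starv and overlapped in FM, and starvation left the means within 1 SD of each other in both lines. Averaged over both media, Ccne2 was 1.36-fold lower in shBruce MEFs (log2 fold change −0.44 ± 0.12, 95% confidence interval −0.69 to −0.19, edgeR adjusted p = 0.0169). In a single medium it missed the threshold (−0.43 and −0.45, edgeR adjusted p = 0.304 in FM and 0.0583 in Starv). The averaged difference was −0.12 with length and GC trends removed (edgeR adjusted p = 0.435), and it did not pass without shRenilla FM replicate 1 (0.0509) or shRenilla Starv replicate 2 (0.0512). Ccne2 has 36.3% GC, the lowest of the 10, and shares 609 exonic bases with Ints8 on the opposite strand, which was lower in shBruce MEFs as well (−0.35 averaged over both media, edgeR adjusted p = 0.0248).

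**Figure D3:**
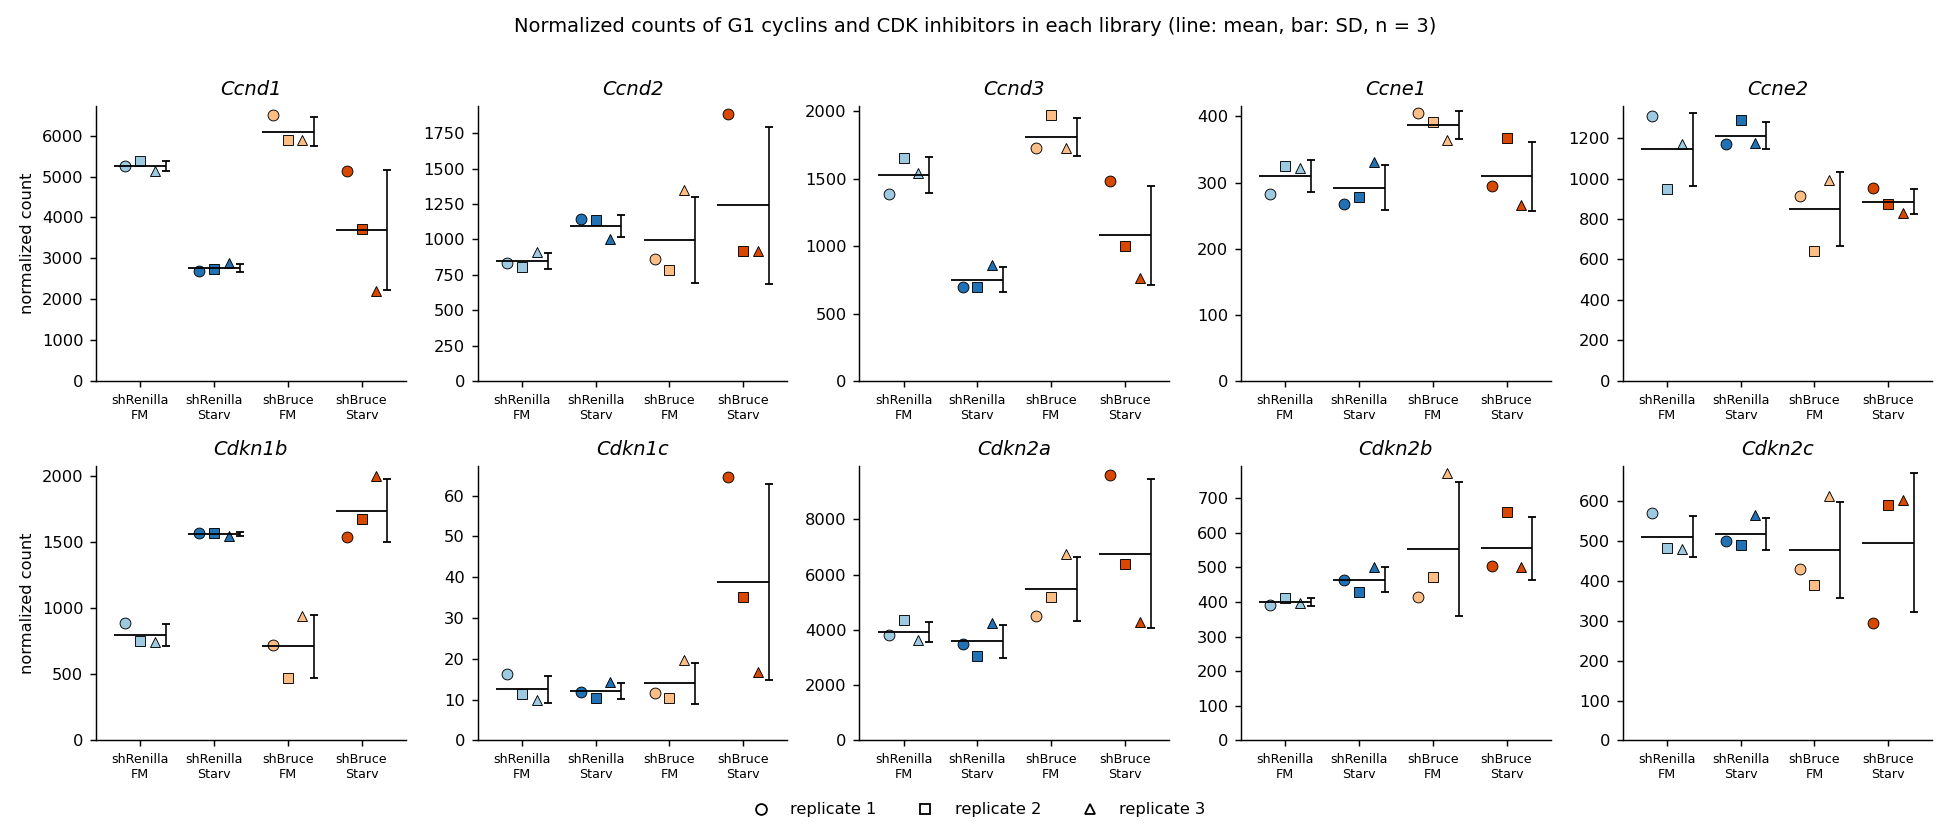
Normalized counts (y axis, from 0) of each gene (panels) in the 3 libraries of each condition, with a symbol per replicate number, the mean as a line and the SD as a bar. Ccnd1 and Ccnd3 drop and Cdkn1b rises upon starvation in both lines, and shBruce Starv replicate 1 is the highest library for Ccnd2, Cdkn1c and Cdkn2a.

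Cdkn1b, which encodes p27, rose upon starvation in both lines. Its normalized counts were 890.5, 756 and 747 in shRenilla FM and 1574, 1566 and 1548 in shRenilla Starv. In shBruce MEFs they were 724, 469 and 945 in FM and 1536, 1678 and 2003 in Starv. The starved libraries lay above all FM libraries, and those of shRenilla Starv had a coefficient of variation of 0.850%. The rise was 1.96-fold in shRenilla MEFs (log2 fold change 0.97 ± 0.20, 95% confidence interval 0.54 to 1.40, edgeR adjusted p = 0.00501) and 2.44-fold in shBruce MEFs (1.29 ± 0.20, 0.85 to 1.72, edgeR adjusted p = 0.000718). Both calls held in all 22 alternatives. The difference between the lines was −0.16 in FM (95% confidence interval −0.59 to 0.27) and 0.16 in Starv (−0.27 to 0.58), neither past the threshold, and the interaction was 0.32 (−0.29 to 0.92, edgeR adjusted p = 0.808).

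The promoter of Cdkn1b is printed because its reads rose most firmly. It is on the plus strand of GRCm38.p6 (RefSeq), with the same motifs in capitals.
Cdkn1b, chr6:134920151-134920400: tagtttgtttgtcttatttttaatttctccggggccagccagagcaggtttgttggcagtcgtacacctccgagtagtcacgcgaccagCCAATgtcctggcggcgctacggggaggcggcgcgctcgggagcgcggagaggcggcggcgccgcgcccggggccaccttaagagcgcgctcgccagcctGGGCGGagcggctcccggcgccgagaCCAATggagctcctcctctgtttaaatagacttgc
It holds 2 CCAAT boxes and 1 GC box, and the letters of the forkhead motif are not in this window.

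Cdkn1b reads per Ccnd1 read set the inhibitor against the cyclin within a library, which needs no scaling between libraries. Length and GC trends of a library are not removed by it. The longest coding transcripts have 4552 bases and 43.1% GC for Cdkn1b, 3740 and 50.9% for Ccnd1, and 2113 and 58.4% for Ccnd3. The ratio was 0.170, 0.140 and 0.145 in shRenilla FM and 0.584, 0.573 and 0.537 in shRenilla Starv. In shBruce MEFs it was 0.111, 0.0796 and 0.160 in FM and 0.298, 0.450 and 0.913 in Starv. Starved libraries were above all FM libraries, and the shBruce Starv libraries lay on both sides of those of shRenilla Starv. Against Ccnd3, the ratio was 0.457 to 0.643 in shRenilla FM and 1.80 to 2.25 in shRenilla Starv, and 0.238 to 0.546 and 1.04 to 2.64 in shBruce FM and Starv.

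**Figure D4:**
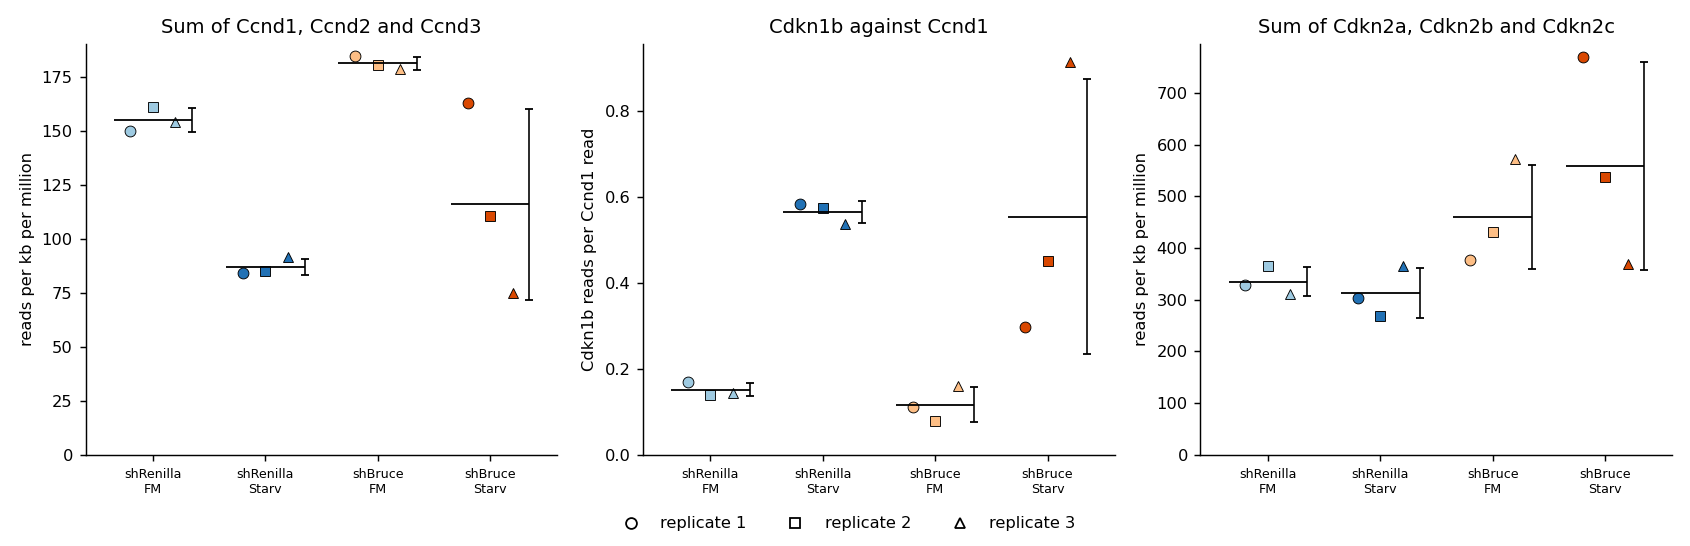
Sum of the D-type cyclins (left) and of the Ink4 genes (right) in RPKM, and Cdkn1b reads per Ccnd1 read (middle), in each library of the 4 conditions, with means and SD (n = 3). Starvation lowers the left panel and raises the middle one in both lines, with the widest spread in shBruce Starv.

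Cdkn1c, the gene of p57, had few reads, and 625 of its exonic bases are shared with Gm44732 on the opposite strand. Its raw counts were 20, 12 and 11 in shRenilla FM, 15, 12 and 15 in shRenilla Starv, 11, 10 and 20 in shBruce FM, and 32, 33 and 18 in shBruce Starv. As normalized counts the latter were 64.6, 35.2 and 16.7, against 10.4 to 14.3 in shRenilla Starv. Counting error alone gives 95% Poisson intervals of 21.9 to 45.2 for the 32 reads of shBruce Starv replicate 1 and of 10.7 to 28.4 for the 18 reads of replicate 3. Cdkn1c was 2.95-fold higher in shBruce than in shRenilla Starv (log2 fold change 1.56 ± 0.44, edgeR adjusted p = 0.0287) and rose 2.56-fold upon starvation of shBruce MEFs (1.35 ± 0.44, edgeR adjusted p = 0.0419). The starved and FM libraries of shBruce overlapped, and the rise passed in 9 of 22 alternatives and in 2 of the 12 fits that leave out a library, with a log2 fold change of 0.85 without shBruce Starv replicate 1 (edgeR adjusted p = 0.141). Against shRenilla Starv it was 1.05 without that library (edgeR adjusted p = 0.0931). That call also missed the threshold without shRenilla Starv replicate 1 (0.114) or 2 (0.124) and without shBruce Starv replicate 2 (0.0686), with length and GC trends removed (0.0964) and with only the Starv libraries fitted (0.117). Of all genes, 0 passed without shRenilla Starv replicate 1 or 2 and with only the Starv libraries fitted. The count was 573 of 12254 without shBruce Starv replicate 1, 15 of 12284 without replicate 2 and 668 of 12051 with the trends removed.

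Cdkn2a was higher in shBruce MEFs and did not pass the threshold for starvation. Its normalized counts were 3824, 4345 and 3644 in shRenilla FM and 3488, 3062 and 4238 in shRenilla Starv. Those of shBruce were 4509.7, 5177 and 6767 in FM and 9618, 6383 and 4293 in Starv. The lines lay apart in each medium, narrowly so in Starv (4293 against 4238 in the nearest libraries), and shBruce Starv replicate 1 stood far above the rest. Cdkn2a was 1.88-fold higher in shBruce than in shRenilla Starv (log2 fold change 0.91 ± 0.25, 95% confidence interval 0.38 to 1.44, edgeR adjusted p = 0.0272). Averaged over both media it was 1.62-fold higher (0.69 ± 0.17, edgeR adjusted p = 0.0149), and in FM alone the difference was 0.48 (−0.05 to 1.00, edgeR adjusted p = 0.374).

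The Cdkn2a differences changed with single libraries and with the removal of length and GC trends. In Starv the log2 fold change was 0.55 without shBruce Starv replicate 1 (edgeR adjusted p = 0.0858) and 1.15 without replicate 3. It also missed the threshold without shBruce Starv replicate 2 (0.0576) and without shRenilla Starv replicate 1 (0.112) or 2 (0.124), and with only the Starv libraries fitted (0.117). Of all genes, 573 of 12254 passed without shBruce Starv replicate 1 and 15 of 12284 without replicate 2. The count was 0 without shRenilla Starv replicate 1 or 2 and with only the Starv libraries fitted. With length and GC trends removed the log2 fold change of Cdkn2a was 0.16 in Starv (edgeR adjusted p = 0.477) and 0.16 averaged over both media (0.306). That removal left 668 and 1269 of 12051 genes called. The longest coding transcript of Cdkn2a has 895 bases and 60.2% GC. The averaged call held in 19 of 21 alternatives, including the removal of each single library.

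Cdkn2a has 2 coding transcripts with separate first exons, of 852 bases (p16INK4a) and 895 bases (p19ARF), which share 575 bases, so the counts per gene cannot tell them apart. Both promoters are therefore printed, from the minus strand of GRCm38.p6 (RefSeq), 5′ to 3′, with the same motifs in capitals.
Cdkn2a, start of the p16INK4a transcript, chr4:89282193-89282442: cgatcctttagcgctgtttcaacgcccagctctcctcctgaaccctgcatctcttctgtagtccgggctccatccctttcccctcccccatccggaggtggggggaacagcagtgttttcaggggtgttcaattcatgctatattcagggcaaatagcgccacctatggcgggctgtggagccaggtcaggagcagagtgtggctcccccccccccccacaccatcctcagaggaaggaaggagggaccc
Cdkn2a, start of the p19ARF transcript, chr4:89294620-89294869: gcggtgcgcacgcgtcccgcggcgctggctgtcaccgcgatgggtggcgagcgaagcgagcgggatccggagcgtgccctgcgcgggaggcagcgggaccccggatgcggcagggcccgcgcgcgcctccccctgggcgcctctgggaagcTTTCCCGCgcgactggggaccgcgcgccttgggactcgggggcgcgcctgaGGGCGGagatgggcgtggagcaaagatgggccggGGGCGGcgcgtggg
The p16INK4a window holds none of the 6 motifs, and the p19ARF window holds 1 E2F motif (0.895% of promoter windows) and 2 GC boxes.

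Cdkn2b, which encodes p15 and lies 11645 bases from Cdkn2a on chromosome 4, had normalized counts of 390.1, 412 and 396 in shRenilla FM and 463, 428 and 501 in shRenilla Starv. In shBruce MEFs they were 414, 472 and 774 in FM and 505, 660.5 and 502 in Starv. All shBruce libraries were above those of shRenilla in the same medium, the nearest ones by few counts. The log2 fold change for shBruce against shRenilla was 0.47 in FM (95% confidence interval 0.03 to 0.91, edgeR adjusted p = 0.324), 0.26 in Starv (−0.17 to 0.70, edgeR adjusted p = 0.346) and 0.37 averaged over both media (0.06 to 0.67, edgeR adjusted p = 0.0644). Cdkn2c, the gene of p18, had group means of 511 ± 50.9, 518 ± 40.6, 477 ± 120.2 and 496 ± 174 (SD, n = 3) in shRenilla FM, shRenilla Starv, shBruce FM and shBruce Starv. Its log2 fold changes ran from −0.10 to 0.07 over the 4 comparisons of conditions, the smallest range of the 10 genes. Its library shBruce Starv replicate 1 was the lowest of all, at 295, where the same library was the highest for Cdkn2a.

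Summed per length, the Ink4 genes came to 335 ± 28.0 (SD, n = 3) in shRenilla FM and 312 ± 48.4 in shRenilla Starv, and to 460.1 ± 101 in shBruce FM and 559 ± 200.4 in shBruce Starv. Most of each sum was Cdkn2a. Over the 10 genes, the libraries of FM and Starv lay apart for 5 in shRenilla MEFs (52.4% of all genes) and for 3 in shBruce MEFs (30.9%). Those of the lines lay apart for 5 genes in FM (33.4% of all genes) and for 4 in Starv (34.9%).

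**Figure D5:**
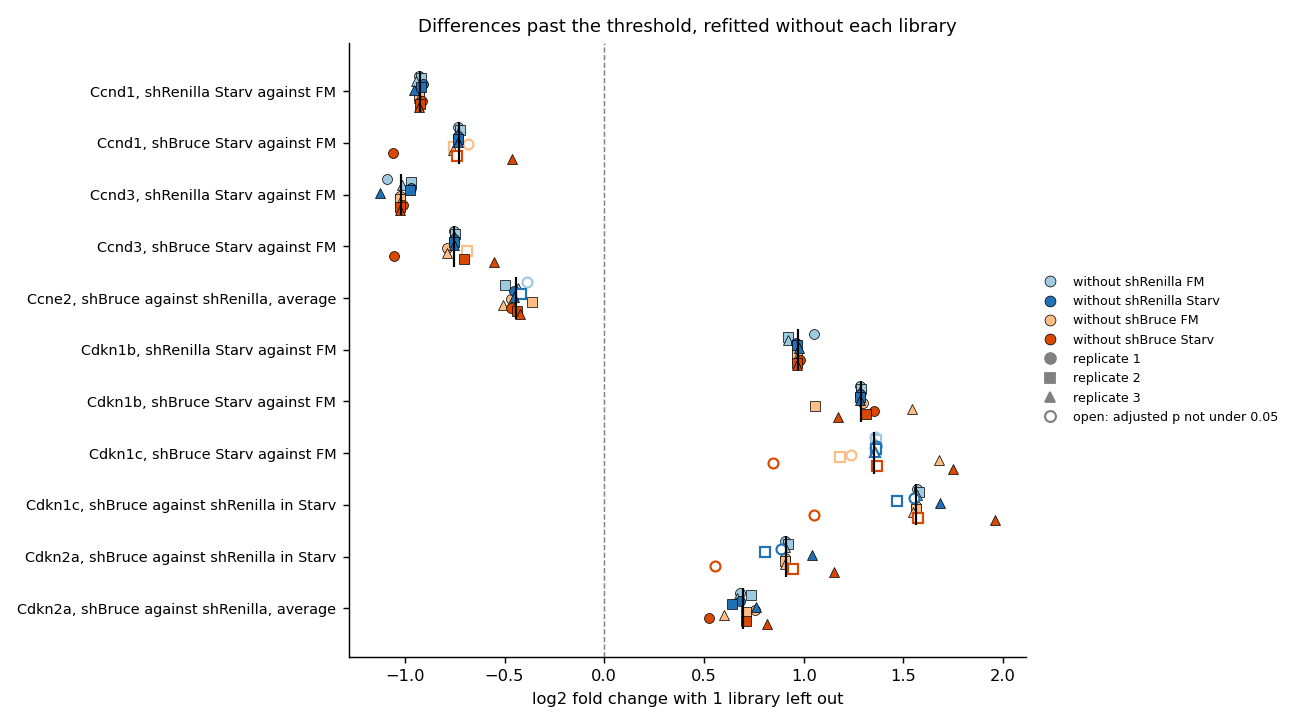
Log2 fold changes (x axis) of the 11 differences past the threshold, refitted without each of the 12 libraries (coloured by condition, symbol by replicate), with the value from all libraries as a vertical line and open symbols where the adjusted p was not under 0.05. Ccnd1, Ccnd3 and Cdkn1b in shRenilla MEFs stay filled throughout, and the widest shifts follow shBruce Starv replicates 1 and 3.

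Genes of the same pathway were taken from 7 lists, to be read against the shares of all genes called, 17.0% and 23.0% for starvation of shRenilla and shBruce MEFs and 23.9% between the lines in Starv. In that last comparison no list kept a call once shBruce Starv replicate 2, or either of replicates 1 and 2 of shRenilla Starv, was left out. Of all genes, 15 of 12284 passed without the former and 0 without either of the latter. Among the fits that leave out a library, every list had its highest count when shBruce Starv replicate 3 was dropped. In that fit 5735 of 12278 genes passed. The number was 573 of 12254 without shBruce Starv replicate 1 and 668 of 12051 with length and GC trends removed. For starvation with a library left out, 1149 to 3212 of all genes passed in shRenilla MEFs and 1855 to 4009 in shBruce MEFs. Counts of list genes in these fits are to be read against those numbers.

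Of the other CDK inhibitors, Cdkn1a (p21), Cdkn2d (p19INK4d) and Cdkn3 (a CDK phosphatase), 0 passed for starvation in either line and 1, Cdkn2d, was higher in shBruce than in shRenilla Starv (log2 fold change 0.62, edgeR adjusted p = 0.0225). That count was 0 with length and GC trends removed and 0 to 3 with a library left out. Of 9 CDK partners and pocket proteins, 0 passed for starvation of shRenilla and 1 of shBruce MEFs, Mnat1, a part of the CDK-activating kinase (0.50). The count in shBruce MEFs was 0 without shBruce FM replicate 1 or 2, where 1916 of 12309 and 1855 of 12312 genes passed. The pocket protein genes Rbl1 and Rbl2 were lower in shBruce than in shRenilla Starv (−0.71 and −0.71, edgeR adjusted p = 0.0374 and 0.0461). These were the 2 of 9 that passed, with a list median of −0.25 against −0.00 over all genes. The count was 1 with length and GC trends removed and 0 to 5 with a library left out. It was 0 also without shBruce FM replicate 1 or 2 and without shRenilla FM replicate 1 or 3. Without these FM libraries, in that order, 2192 of 12309, 2289 of 12312, 1972 of 12317 and 2021 of 12314 genes passed.

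Of 10 E2F and DP factors, 3 rose and 1 fell upon starvation of shRenilla MEFs, and 3 rose and 3 fell in shBruce MEFs. Tfdp2, a partner of E2F proteins, and E2f2, an activator, rose in both lines (log2 fold changes 1.15 and 0.85 in shRenilla, 0.84 and 1.31 in shBruce), and the repressor E2f4 fell by 0.66 and 0.68 on the log2 scale. In Starv, E2f2 and E2f1 were higher (0.84 and 0.46) and E2f7 and Tfdp1 lower (−0.64 and −0.56) in shBruce MEFs, 4 of 10 in all. That count was 2 with length and GC trends removed, 2 without shBruce Starv replicate 1 and 7 without replicate 3. Those fits called 668, 573 and 5735 of all genes. The starvation counts were 4 to 6 in shRenilla and 4 to 7 in shBruce MEFs with a library left out.

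Of 30 E2F targets of G1/S, 3 rose and 1 fell in shRenilla MEFs, 4 rose and 1 fell in shBruce MEFs, and 8 were higher and 0 lower in shBruce than in shRenilla Starv. Cdt1, which loads the replicative helicase, rose by log2 fold changes of 0.88 and 1.01 in shRenilla and shBruce MEFs, and Cdc25a, a phosphatase that activates CDK2, fell by 0.68 and 0.56 on the log2 scale. The list medians were 0.08 and 0.10 for starvation in the 2 lines, against −0.01 and 0.02 over all genes. In Starv the count of 8 between the lines was 0 without shBruce Starv replicate 1, 13 without replicate 3 and 3 with length and GC trends removed. Of all genes, 573, 5735 and 668 passed in those fits. The starvation counts were 2 to 6 in shRenilla and 4 to 10 in shBruce MEFs with a library left out.

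Of 28 G2/M genes, 1 rose and 1 fell in shRenilla MEFs and 1 rose and 5 fell in shBruce MEFs, with Ccnf (cyclin F) lower in both (−0.56 and −0.64), and 4 were lower in shBruce than in shRenilla Starv, among them Kif11 and Bub1 (−0.77 and −0.75). The latter count was 0 with length and GC trends removed, 1 without shBruce Starv replicate 1 and 12 without replicate 3. Over all genes those fits called 668, 573 and 5735. The starvation counts were 1 to 5 in shRenilla and 3 to 8 in shBruce MEFs with a library left out.

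Of 12 parts of the ubiquitin ligases that degrade G1 cyclins and p27, 1 rose and 1 fell in shRenilla MEFs and 1 rose and 2 fell in shBruce MEFs. Fbxo31, which targets cyclin D1, rose in both (log2 fold changes 0.53 and 0.83, edgeR adjusted p = 0.0147 and 0.000784), and Skp2, the F-box protein for p27, fell by 0.50 on the log2 scale in shBruce MEFs (edgeR adjusted p = 0.00978). With a library left out, 0 to 4 passed in shRenilla MEFs and 2 to 5 in shBruce MEFs. The count in shRenilla MEFs was 0 without shRenilla FM replicate 1 or 3 or shRenilla Starv replicate 3. Those fits called 1224 of 12317, 1199 of 12314 and 1499 of 12295 genes. In Starv, 2 of the 12 were higher and 0 lower in shBruce MEFs, among them Fbxo31 (0.46, edgeR adjusted p = 0.0288). That count was 2 with length and GC trends removed and 0 to 7 with a library left out.

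Of 14 polycomb genes that repress the Ink4 locus, 6 rose and 1 fell upon starvation of shRenilla MEFs and 7 rose and 1 fell in shBruce MEFs, with medians of 0.32 and 0.50 against −0.01 and 0.02 over all genes. Ezh1, a histone H3K27 methyltransferase, rose by log2 fold changes of 1.37 in shRenilla and 1.19 in shBruce MEFs, and Phc2 fell by 0.84 and 0.69 on the log2 scale. In Starv, Ring1 and Pcgf2 were higher (0.58 and 0.57) and Suz12 lower (−0.64) in shBruce MEFs. This count of 3 was 0 with length and GC trends removed, 1 without shBruce Starv replicate 1 and 7 without replicate 3. For all genes the counts in those fits were 668, 573 and 5735. The starvation counts were 3 to 8 in shRenilla MEFs with a library left out, with 3 without shRenilla FM replicate 1 or 3. Over all genes, 1224 of 12317 and 1199 of 12314 passed without these libraries. In shBruce MEFs the starvation counts were 5 to 9, with 5 without shBruce FM replicate 1, where 1916 of 12309 genes passed. In FM, 0 genes of these lists passed between the lines in edgeR, and each list had 0 to 2 genes at an unadjusted p under 0.05.

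For each member that passed in some comparison, the gene with the most similar course was sought by Pearson's r of log2 normalized counts over the 12 libraries, which share their depth and length trends. It was Dlgap4 for Ccnd1 (r = 0.98), Dda1 for Ccnd3 (0.99), Ppp3cb for Ccne2 (0.95), Meis1 for Cdkn1b (0.97), Sec62 for Cdkn1c (0.97) and Map1lc3a for Cdkn2a (0.99). These values describe the 12 libraries, which include shBruce Starv replicate 1.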

How the data were processed

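RNA-Seq was measured in 12 libraries. As deposited, the values are raw counts per gene symbol, which the authors made from poly(A) RNA read from a single end: reads from rRNA were removed, and the submitters' processing notes name STAR 2.4.0d, HTSeq 0.5.4p3, R 3.2.0, edgeR, limma and the genome build mm10. The annotation and the strand setting of the counting are not given in the sources used here. Of the table's 24062 rows, 27 symbols had been turned into dates (0.296% of counts) and 2 symbols were repeated.

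Counts were tested with the quasi-likelihood test of edgeR 4.0.16 in R 4.3.3, with TMM scaling and the default filter on low counts, in a joint fit of all 12 libraries over 12154 genes. The level was an adjusted p of 0.05 (Benjamini-Hochberg). Comparisons were starvation in each line, shBruce against shRenilla in each medium and averaged over both, and the interaction. Exact two-sided permutation tests of 3 libraries against 3 cannot go below p = 0.1. Errors of log2 fold changes are SE. The 22 alternatives (21 for the averaged comparison and the interaction, which use all conditions) were DESeq2 1.42.0 size factors, upper-quartile scaling, the DESeq2 Wald test, limma-voom (limma 3.58.1), no filter, at least 10 counts in every library, only the conditions compared, a replicate block, removal of length and GC trends (splines with 4 degrees of freedom) with and without the block, and each library left out. Same-numbered libraries deviated together in every pair only between shRenilla FM and shBruce FM (correlations of 0.108 to 0.308, a hint from the data, since the labels state no shared batch). The fits were tested on simulated data.

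Gene positions and lengths came from GENCODE M21 (GRCm38), in which 22724 symbols of the table were found as written and 933 under a former name. Figures were drawn with matplotlib 3.10.9. The members and gene lists were chosen with earlier results of these data known. All members are named, as are, per list and comparison, up to 2 genes that rose and 2 that fell with the largest called change, and the most similar gene of each called member; 1 gene that this rule names is not reported here. Replicate pairs differed by more than sampling noise (chi-square per degree of freedom 2.21 to 95.7). Library totals of 7717265 to 18510540 limit the precision for low genes such as Cdkn1c, and Poisson intervals cover counting error only.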

Additional observations from a re-analysis of the deposited data

How the results depend on the processing

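Of 1300 log2 fold changes of members under alternatives, 1238 kept their side of the threshold, 40 no longer passed, 22 newly passed and 0 passed with the opposite sign. For starvation of shRenilla MEFs, 3 members passed, and 4 with only those conditions fitted, where 5013 of 11954 genes passed. For starvation of shBruce MEFs, 4 members passed, 1 with only the conditions compared, and 1 to 4 with a library left out (2 without shBruce FM replicate 1 and 1 without replicate 2). Of all genes, 956 of 11787 passed with only the conditions compared. The count was 1916 of 12309 without shBruce FM replicate 1 and 1855 of 12312 without replicate 2. Between the lines in Starv, 2 members passed, 4 by the DESeq2 Wald test, 0 with only the conditions compared, 0 with length and GC trends removed and 0 with the replicate block added to that. Those alternatives called 3781, 0, 668 and 1 of all genes. With a library left out, 0 to 4 members passed, 0 without shRenilla Starv replicate 1 or 2 or shBruce Starv replicate 1 or 2, and 4 without shBruce Starv replicate 3. Of all genes, 0 passed without shRenilla Starv replicate 1 or 2. The count was 573 of 12254 without shBruce Starv replicate 1, 15 of 12284 without replicate 2 and 5735 of 12278 without replicate 3. Averaged over both media, 2 members passed, 5 by the DESeq2 Wald test, 0 with length and GC trends removed and 0 with the block added. Those alternatives called 4538, 1269 and 548 of all genes. With a library left out, 1 to 7 members passed, 1 without shRenilla FM replicate 1 or shRenilla Starv replicate 2 and 7 without shBruce Starv replicate 3. Of all genes, 1695 of 12317, 1401 of 12301 and 6081 of 12278 passed without these libraries. The cause was not tested. In FM and for the interaction 0 members passed under every alternative. Over all genes the calls ranged over the alternatives from 1149 to 5013 (2061 as reported) for starvation of shRenilla MEFs, 956 to 4009 (2790) of shBruce MEFs, 0 to 597 (0) between the lines in FM, 0 to 5735 (2907) in Starv and 548 to 6081 (3900) averaged. Of 18 correlations of same-numbered deviations, 7 were over 0.1 (−0.748 to 0.577). All 3 pairs were over 0.1 only for shRenilla FM with shBruce FM (0.190, 0.308 and 0.108), where the replicate block gave 0 members and 0 of all genes, as without it. For the other conditions the samples share only a number. With the replicate block alone, 3 and 3 members passed for starvation of shRenilla and of shBruce MEFs. Between the lines, 0, 2 and 2 passed in FM, in Starv and averaged, and for the interaction 0 passed. Of all 12154 genes, in the same order, 1770, 2450, 0, 1932, 3280 and 0 passed. In that fit Cdkn1c in starved shBruce MEFs had a log2 fold change of 1.32 (edgeR adjusted p = 0.0553).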
